A study of Mus musculus with 6 samples.

Results

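The genes described here are the core of the Hippo pathway and its transcriptional end: the co-activators Yap1 and Wwtr1, the DNA-binding factors Tead1, Tead2, Tead3 and Tead4, the kinases Lats1 and Lats2, the scaffold Sav1 and the TEAD cofactor Vgll4. They were taken by gene name from the deposited gene table, 10 genes of 56748. All 10 reached a mean of at least 1 FPKM over the 6 libraries, the limit under which 12678 genes were tested. FPKM are fragments scaled to gene length and library size. Levels of different genes are set side by side on this scale, which does not correct for base composition.

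RNA was sequenced from whole mouse hearts at postnatal day 1, in 2 groups of 3 libraries each. The cKO hearts carried a cardiac-specific knockout of the histone demethylase gene Kdm5b, and the FF hearts came from control mice labelled Flox, described as Kdm5b FF and giving FF as genotype. The Cre line that drives the deletion is not named, and a whole heart also holds cells outside the muscle lineage. Samples are numbered with no word on whether a number stands for 1 animal, and p-values here rest on the spread of these samples alone, part of which may be technical.

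In the Hippo pathway, MST kinases with the scaffold SAV1 activate LATS1 and LATS2, which phosphorylate YAP and TAZ (the protein of Wwtr1) and keep them out of the nucleus. In the nucleus YAP and TAZ bind DNA through TEAD factors, which read the M-CAT element CATTCC, and VGLL4 competes with them for TEAD. In the mouse heart, loss of Sav1 or of the Lats kinases is known to enlarge the heart by extra cardiomyocyte division, Yap1 is needed for fetal and newborn cardiomyocyte proliferation, and YAP activity declines after birth. TEAD factors also act at promoters of muscle genes.

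The M-CAT element is shown first because it is what TEAD proteins recognise and because several of these genes carry it in front of their own start. RefSeq promoter entries (GRCm38.p6) were found for 8 of the 10 genes, all but Tead1 and Tead4. Within 250 bases before an annotated start, CATTCC on either strand (read as GGAATG on the other) was present for 5 of those 8 genes, Yap1, Wwtr1, Sav1, Tead3 and Vgll4, against 14.4% of 27025 genes with such an entry. A match of 6 letters is a description and not a binding site. The stretches below are printed 5′ to 3′ on the strand of the gene with the element in capitals, 60 bases for Yap1 (chr9:8004705-8004764, minus strand), Wwtr1 (chr3:57576014-57576073, minus strand) and Sav1 (chr12:69987076-69987135, minus strand), and 30 bases for Tead3 (chr17:28350970-28350999, minus strand). Tead3 has 3 annotated starts, and the stretch belongs to the outermost of them. Another start has 2 further elements in its own 250 bases, which are not printed.
Yap1: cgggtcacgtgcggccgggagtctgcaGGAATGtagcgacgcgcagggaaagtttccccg
Wwtr1: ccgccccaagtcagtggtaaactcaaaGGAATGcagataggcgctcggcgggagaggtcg
Sav1: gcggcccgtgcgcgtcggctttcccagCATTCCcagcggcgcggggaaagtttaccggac
Tead3: gacgacgagcgaGGAATGgggtgcgcggga
The whole 250 bases before the start of Vgll4 (chr6:114969204-114969453, minus strand) are given because this was the member with the clearest difference between the groups, and its element begins 82 bases before the start.
Vgll4: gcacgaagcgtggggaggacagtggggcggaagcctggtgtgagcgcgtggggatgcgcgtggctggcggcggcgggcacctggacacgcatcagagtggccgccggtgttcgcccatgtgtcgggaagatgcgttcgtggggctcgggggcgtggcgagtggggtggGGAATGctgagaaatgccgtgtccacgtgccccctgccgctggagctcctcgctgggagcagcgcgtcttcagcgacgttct

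Reads recovered from the FPKM summed to 15658893 to 20339926 per library over the genes listed. The muscle markers fixed for the label check (7 genes, among them Tnnt2, Myl2 and Ryr2) were present in all 6 libraries, at summed levels of 12580 to 13988 FPKM in cKO and 12522 to 14448 FPKM in FF hearts. Kdm5b itself was at 2.80, 3.03 and 2.75 FPKM in cKO hearts, against 3.19, 3.25 and 3.92 FPKM in FF hearts, values that cover every exon and every cell type. Its log2 difference was -0.20 (limma adjusted p = 0.447), and -0.13 (adjusted p = 0.391) without FF replicate 3, and the knockout was thus not visible as a called loss of whole-gene signal. FF replicate 3 stood apart. It correlated with the other libraries at 0.880 to 0.909 across genes, against 0.954 to 0.984 among those others. Its 13 thymocyte markers summed to 290.0 FPKM, against 0.429 to 1.71 FPKM in the other 5 libraries. Of those markers, 10 were at 0 in at least 1 of the other libraries. The tests below are therefore given with all 6 libraries and without FF replicate 3.

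With all 6 libraries, none of the 10 genes differed between cKO and FF hearts in limma with Benjamini-Hochberg adjustment, where the adjusted p ran from 0.338 for Vgll4 to 0.993 for Wwtr1. The count at an unadjusted p under 0.05 was 0 as well. Over all genes tested 0.166% passed (21 genes), 0.0710% higher and 0.0947% lower in cKO hearts. That small count was 0 when any library other than FF replicate 3 was left out. The median log2 difference (log2 of FPKM + 1 in cKO less that in FF hearts) was 0.17 over the 10 genes, against 0.01 over all 12678 genes. Of the 10 genes 8 were above 0 and 2 below, and of all genes 50.7% were above 0. Without FF replicate 3 the median was 0.09, against -0.01 over all genes. Then 6 members were above 0 and 4 below, and 48.6% of all genes were above 0. Genes share libraries and are not independent. Without FF replicate 3, Vgll4 alone passed, and the count of 1 in 10 compares with 12.0% of all genes tested (1520 genes), 5.73% higher and 6.26% lower. The share of members called thus lay near the background in that fit. Of the 1520 genes 726 were higher and 794 lower. Also without FF replicate 3, rescaling outside mitochondrial and haemoglobin genes called 1728 genes, 1112 higher and 616 lower. Limma-voom on recovered reads called 2408, 1488 higher and 920 lower. Leaving out FF replicate 1 or 2 as well gave 0 called genes, cKO replicate 2 509, cKO replicate 3 97 and cKO replicate 1 1705.

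**Figure D1:**
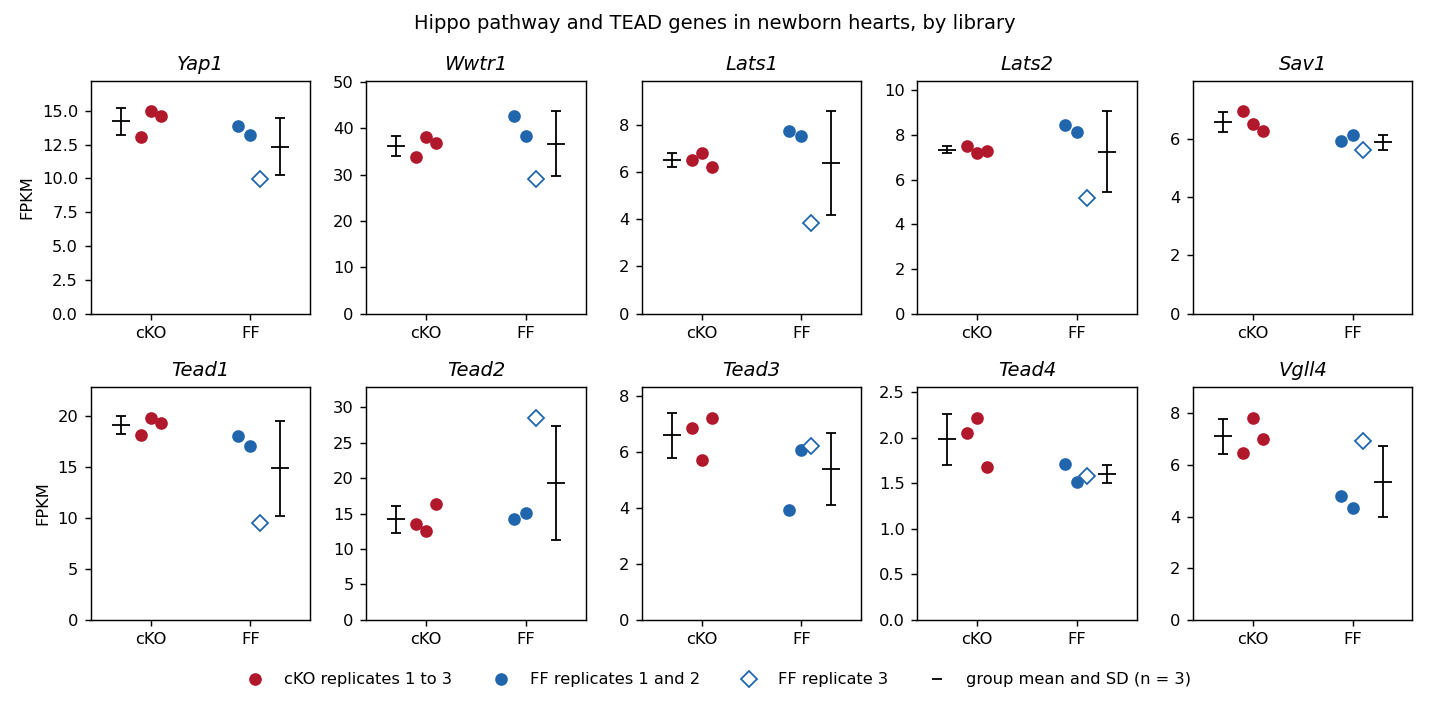
FPKM (linear axis from 0) of the 10 genes in each library, with cKO hearts left and FF hearts right in each panel and black marks for the mean and SD of 3 libraries. FF replicate 3 (open diamond) is the lowest of the 6 libraries for Yap1, Wwtr1, Lats1, Lats2, Sav1 and Tead1 and the highest for Tead2, while for Vgll4 it lies at 6.93 FPKM, within the 6.47 to 7.84 FPKM of the cKO hearts.

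The co-activators were the first group. Wwtr1 (ENSMUSG00000027803, chromosome 3, 57363070 to 57483331, minus strand), which encodes TAZ, had the highest level of the 10 genes in every library. It stood at 33.7, 38.1 and 36.8 FPKM in cKO hearts, against 42.7, 38.3 and 29.1 FPKM in FF hearts. The groups overlapped because FF replicate 3 was lowest, and the other FF hearts were above all cKO hearts. The log2 difference was -0.00 (95% interval -0.40 to 0.39; limma adjusted p = 0.993) and -0.16 (-0.39 to 0.07; adjusted p = 0.293) without FF replicate 3.

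Yap1 (ENSMUSG00000053110, chromosome 9, 7932000 to 8004597, minus strand) was at 13.1, 15.0 and 14.6 FPKM in cKO hearts, against 13.9, 13.2 and 9.94 FPKM in FF hearts. Its log2 difference of 0.20 (95% interval -0.17 to 0.57; limma adjusted p = 0.546) became 0.06 (-0.16 to 0.29; adjusted p = 0.666) without FF replicate 3. Neither interval excluded 0. The sum of Yap1 and Wwtr1 averaged 50.4 ± 3.21 FPKM in cKO and 49.1 ± 9.06 FPKM in FF hearts (SD, n = 3 each). FF replicates 1 and 2 alone averaged 54.1 ± 3.61 FPKM, above the cKO mean, so the direction turned with FF replicate 3.

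The balance of the co-activators separated the groups more than either gene did. Wwtr1 exceeded Yap1 by 2.57, 2.54 and 2.52 times in cKO hearts and by 3.07, 2.91 and 2.92 times in FF hearts. The ratio was lower in all 3 cKO hearts than in any FF heart, FF replicate 3 included, and averaged 2.54 ± 0.0294 in cKO and 2.97 ± 0.0890 in FF hearts (SD, n = 3 each). This ratio was singled out after the values were seen and was not tested. How many other gene pairs have a ratio that separates the groups was not counted. Of single genes tested, 28.0% separated them.

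The kinases and their scaffold came next. Lats1 (ENSMUSG00000040021, chromosome 10, 7556978 to 7592224, plus strand) was at 6.50, 6.80 and 6.20 FPKM in cKO hearts, against 7.75, 7.54 and 3.86 FPKM in FF hearts. Lats2 (ENSMUSG00000021959, chromosome 14, 57927119 to 57995845, minus strand), also a known target of YAP, was at 7.50, 7.19 and 7.30 FPKM in cKO hearts, against 8.46, 8.12 and 5.19 FPKM in FF hearts. In both genes FF replicates 1 and 2 lay above all cKO hearts and FF replicate 3 below them. The log2 differences were 0.07 for Lats1 and 0.04 for Lats2 with all libraries (limma adjusted p = 0.905 and 0.932), and -0.21 (95% interval -0.42 to 0.01) and -0.16 (-0.36 to 0.05) without FF replicate 3 (adjusted p = 0.162 and 0.243). The direction of both kinases thus turned with a single control library, and neither passed in either fit. A second gene of the table, Gm49361, overlaps 56442 bases of Lats2 on the same strand and is listed at 0 in all libraries, and how reads in the overlap were assigned is not known.

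Sav1 (ENSMUSG00000021067, chromosome 12, 70011786 to 70033776, minus strand), the scaffold that brings MST kinases to LATS, was at 6.95, 6.52 and 6.28 FPKM in cKO hearts, against 5.92, 6.14 and 5.62 FPKM in FF hearts. The groups did not overlap, and the two-sided exact permutation p was 0.1, the smallest that 3 against 3 allows. The gap was small, with a log2 difference of 0.14 (95% interval -0.12 to 0.40; limma adjusted p = 0.557) and 0.11 (-0.11 to 0.33; adjusted p = 0.440) without FF replicate 3. Genes on the opposite strand overlap Sav1, among them Atl1 over 1406 bases at 1.28 to 1.45 FPKM in cKO and 0.376 to 1.16 FPKM in FF hearts. Sav1 and Tead1 were the members whose groups did not overlap over the 6 libraries, 2 of 10, both higher in cKO hearts, where 28.0% of all genes tested did so and 13.5% in that direction.

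Among the TEAD factors, Tead1 and Tead2 had the highest levels. Tead1 (ENSMUSG00000055320, chromosome 7, 112278525 to 112506014, plus strand), the family member required for heart development in the mouse, was at 18.1, 19.8 and 19.2 FPKM in cKO hearts, against 18.0, 17.1 and 9.49 FPKM in FF hearts. The groups touched at cKO replicate 1 and FF replicate 1 without overlapping (two-sided exact permutation p = 0.1). Its log2 difference was 0.39 (95% interval -0.18 to 0.95; limma adjusted p = 0.450), and 0.11 (-0.09 to 0.32; adjusted p = 0.387) without FF replicate 3.

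Tead2 (ENSMUSG00000030796, chromosome 7, 44865177 to 44883068, plus strand), the form most used in early embryos, was at 13.6, 12.6 and 16.3 FPKM in cKO hearts, against 14.3, 15.1 and 28.5 FPKM in FF hearts. FF replicate 3 was far above the rest, and the groups overlapped. The log2 difference of -0.36 (95% interval -1.0 to 0.28; limma adjusted p = 0.537) shrank to -0.06 (-0.35 to 0.24; adjusted p = 0.781) without that library. Tead1 took 20.7% of the TEAD sum in FF replicate 3 and 43.0% to 49.1% in the other libraries, and Tead2 62.3% against 31.2% to 38.0%. Tead2 meets the leukocyte gene Cd37 on the opposite strand over 13 bases, and Cd37 was at 0.144 to 0.445 FPKM in cKO and 0.391 to 1.79 FPKM in FF hearts.

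Tead3 (ENSMUSG00000002249, chromosome 17, 28550645 to 28569791, minus strand) was at 6.86, 5.70 and 7.23 FPKM in cKO hearts, against 3.93, 6.05 and 6.21 FPKM in FF hearts. FF replicate 1 was the low library here and the groups overlapped. Its log2 difference was 0.26 (limma adjusted p = 0.508), and 0.36 (95% interval -0.07 to 0.79; adjusted p = 0.204) without FF replicate 3. Tead4 (ENSMUSG00000030353, chromosome 6, 128201251 to 128277786, minus strand), known from trophoblast and skeletal muscle in the mouse, was the lowest member at 2.05, 2.22 and 1.68 FPKM in cKO hearts, against 1.71, 1.51 and 1.58 FPKM in FF hearts. It rested on 87 to 158 reads per library, so counting error alone was wide: the 95% exact Poisson interval was 1.40 to 1.99 FPKM for the third cKO heart and 1.40 to 2.07 FPKM for the first FF heart. PCR copies are not separate molecules, and such intervals cover counting error only. The log2 difference of Tead4 was 0.19 in both fits (limma adjusted p = 0.512, and 0.331 without FF replicate 3). The summed TEAD level was 40.6, 40.3 and 44.5 FPKM in cKO hearts, against 37.9, 39.7 and 45.8 FPKM in FF hearts. The means of 41.8 ± 2.32 FPKM in cKO and 41.1 ± 4.16 FPKM in FF hearts (SD, n = 3 each) differed by less than the spread between replicates. That rests on FF replicate 3, since FF replicates 1 and 2 (38.8 ± 1.28 FPKM) both lay below every cKO heart. The sums were not tested.

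**Figure D2:**
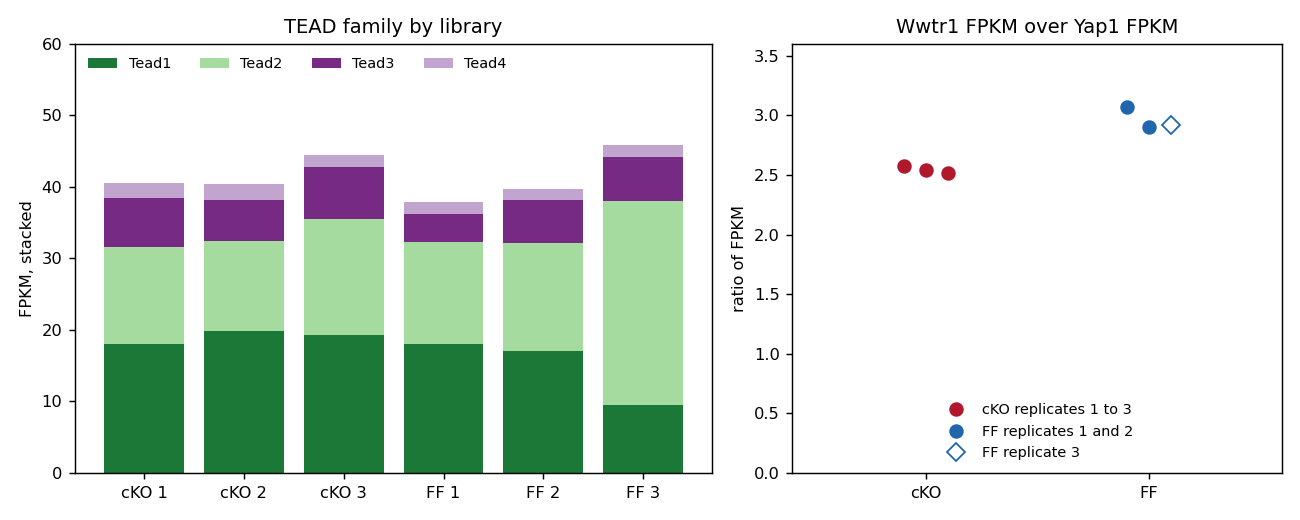
Left, FPKM of Tead1 to Tead4 stacked for each library, cKO hearts before FF hearts; right, the ratio of Wwtr1 FPKM to Yap1 FPKM in each library (linear axes from 0). The TEAD sum runs from 37.9 to 45.8 FPKM and FF replicate 3 has a larger Tead2 part, while the 3 ratios of cKO hearts, 2.52 to 2.57, lie below the 3 of FF hearts, 2.91 to 3.07.

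Vgll4 (ENSMUSG00000030315, chromosome 6, 114837589 to 114946955, minus strand), whose promoter stretch is printed above, was the only member past the threshold in either fit. It was at 6.47, 7.84 and 7.02 FPKM in cKO hearts, against 4.80, 4.35 and 6.93 FPKM in FF hearts. FF replicates 1 and 2 were below every cKO heart and FF replicate 3 lay within the cKO range, so the groups overlapped over 6 libraries. The log2 difference was 0.37 (95% interval -0.05 to 0.79; limma adjusted p = 0.338). Without FF replicate 3 Vgll4 was called higher in cKO hearts, with a log2 difference of 0.54 (0.27 to 0.80; limma adjusted p = 0.0337), the mean of cKO hearts being 55.5% above that of FF replicates 1 and 2. Counting error was smaller than this gap: the 690 reads of the lowest cKO heart gave a 95% exact Poisson interval of 6.0 to 6.98 FPKM, and the 442 reads of FF replicate 1 one of 4.36 to 5.27 FPKM. From these 5 libraries, leaving out cKO replicate 2 or cKO replicate 3 in addition ended the call (limma adjusted p = 0.0769 and 0.0995). Over all genes tested, 509 and 97 were called in those fits. The call also ended with FF replicate 1 or FF replicate 2 out. Those fits leave 1 FF library and ended the calls of all other genes too, so they are not particular to Vgll4. Its log2 differences on these omissions were 0.48 to 0.60.

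Set against the co-activators, Vgll4 amounted to 13.8%, 14.8% and 13.7% of the summed Yap1 and Wwtr1 FPKM in cKO hearts, against 8.47%, 8.43% and 17.8% in FF hearts. FF replicate 3 again went with, and here beyond, the cKO hearts. Smooth muscle markers were likewise lowest in FF replicates 1 and 2. The 5 genes of that list summed to 424 to 526 FPKM in cKO hearts, against 376 and 383 FPKM in FF replicates 1 and 2 and 462 FPKM in FF replicate 3. Epicardial markers (6 genes) summed to 27.0 to 35.7 FPKM in cKO hearts, against 25.0, 23.8 and 56.7 FPKM in FF hearts. All 5 and all 6 genes were above 0 in every library, and without FF replicate 3 each list had 2 genes called higher and 1 called lower. Macrophage markers (5 genes, all above 0) ran the other way, at 24.3 to 31.4 FPKM in cKO hearts, against 33.1, 45.0 and 77.5 FPKM in FF hearts. The share of reads from the mitochondrial genome was 15.7%, 13.5% and 12.8% in cKO hearts, against 19.0%, 18.0% and 19.0% in FF hearts. The part of these cells and of that share in the Vgll4 values was not tested, and in whole-heart RNA fewer cells of a type and less RNA per cell cannot be told apart.

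**Figure D3:**
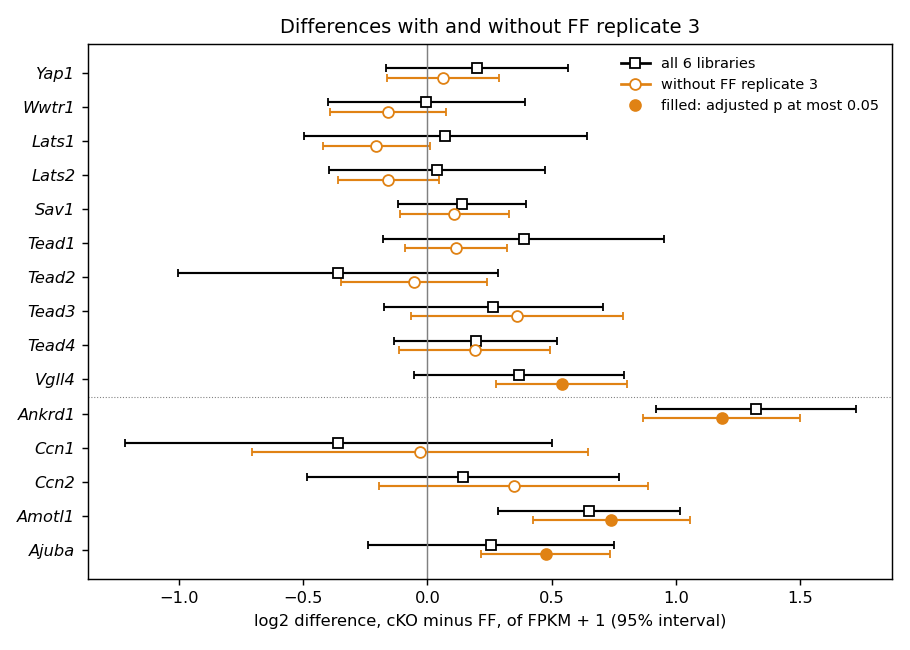
Log2 differences, cKO minus FF, of FPKM + 1 with 95% intervals from limma, for the 10 genes (above the dotted line) and 5 genes of the wider pathway, with all 6 libraries (black squares) and without FF replicate 3 (orange circles); filled symbols have an adjusted p of at most 0.05. No square is filled, and the filled circles are Vgll4 at 0.54, Ankrd1 at 1.18, Amotl1 at 0.74 and Ajuba at 0.48.

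Without FF replicate 3, the groups did not overlap in 6 of the 10 genes. Tead1, Sav1 and Vgll4 were higher in cKO hearts (3 genes; 25.0% of all genes tested were so placed) and Wwtr1, Lats1 and Lats2 were lower (3 genes; 27.0%). With 3 libraries against 2 such a split is frequent, as 52.0% of all genes tested showed it in either direction. The order of levels in cKO hearts was Wwtr1, Tead1, Yap1, Tead2, Lats2, Vgll4, Tead3, Sav1, Lats1 and Tead4. Over FF replicates 1 and 2 it was Wwtr1, Tead1, Tead2, Yap1, Lats2, Lats1, Sav1, Tead3, Vgll4 and Tead4, while in FF replicate 3 Tead2 was above Tead1. Yap1 and Tead2 overlapped in range in cKO hearts, as did neighbours from Lats2 to Lats1, whereas Wwtr1, Tead1 and Tead4 were clear of their neighbours.

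The position of FF replicate 3 moved in part with the base composition of these genes. Wwtr1, Lats1 and Sav1, at 43.9%, 44.0% and 42.0% GC in their transcripts, were lower there than in the mean of the other 5 libraries by log2 differences of -0.37, -0.71 and -0.15, and Tead1, at 47.9% GC, by -0.89. Tead2, at 57.7% GC, was higher by 0.95 and Vgll4, at 56.0% GC, by 0.19. Yap1 (51.5% GC) and Lats2 (53.6% GC) were lower there as well, at -0.45 and -0.49, and the most GC-rich members, Tead3 and Tead4, were at 0.07 and -0.13. Spearman's rho between GC content and that difference was 0.576 over the 10 genes. Over the 10 members and the 29 tested genes of a list of upstream Hippo regulators, the same rho was 0.714 (39 genes, which share libraries and are not independent), against 0.618 over 12473 genes. Deviations of the other libraries from the 6-library mean also went with GC content. Spearman's rho was -0.483 and -0.310 in FF replicates 1 and 2, and -0.380, -0.0693 and -0.0543 in cKO hearts. Such deviations depend on each other, but the libraries still differ in this value without FF replicate 3. A GC correction per library was run on all 6 libraries. The log2 difference was then 0.44 for Vgll4 (limma adjusted p = 0.0634) and 0.36 for Tead1 (adjusted p = 0.315). For Tead2 it was -0.26 (adjusted p = 0.376). Some marker sums, but not all, stood apart in FF replicate 3 too. Cardiomyocyte markers there summed to 13498.5 FPKM, within the 12522 to 14448 FPKM of the other 5 libraries. Smooth muscle markers summed to 462 FPKM, within 376 to 526 FPKM. Besides the thymocyte list at 290.0 FPKM, FF replicate 3 had the highest sums of fibroblast markers (536 FPKM, against 317 to 433 FPKM in the other 5 libraries), endothelial markers (373 against 219 to 273), epicardial markers (56.7 against 23.8 to 35.7), macrophage markers (77.5 against 24.3 to 45.0) and erythroid markers (1553 against 752 to 1095). Not every gene of these last 5 lists followed its sum. FF replicate 3 was the highest library for 3 of 6 fibroblast, 4 of 6 endothelial and 5 of 6 epicardial genes. It was highest for 4 of 5 macrophage and 3 of 6 erythroid genes. All genes of these 5 lists were above 0 in every library, and the part of those cells was not tested.

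**Figure D4:**
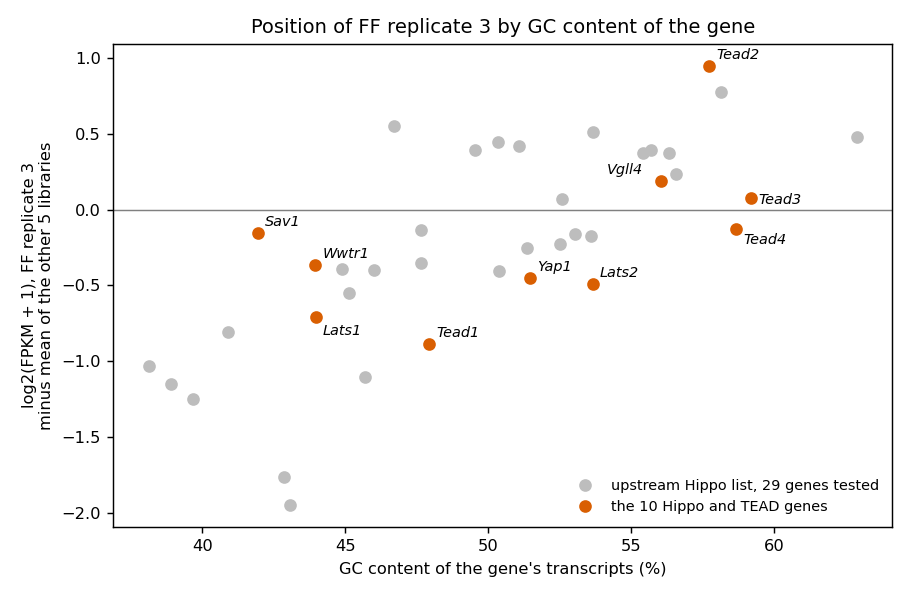
Each point is a gene, with the GC content of its transcripts (%) on the x axis and, on the y axis, log2(FPKM + 1) in FF replicate 3 minus the mean of the other 5 libraries; orange points are the 10 genes and grey points the 29 tested upstream regulators. Of the 17 genes under 48% GC, 16 lie below 0, and of the 22 others 8 do.

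Upstream regulators of the pathway were read next. Of 30 genes listed, 29 were tested and none passed with all 6 libraries in limma (4 had an unadjusted p under 0.05), with a median log2 difference of 0.15. Without FF replicate 3, Amotl1 and Ajuba rose and none fell, 2 of 29 (6.90%) beside 12.0% of all genes tested, and the median was 0.02 against -0.01 over all genes. Amotl1, an angiomotin that binds YAP at cell junctions, was at 19.4, 25.2 and 19.5 FPKM in cKO hearts, against 12.1, 12.6 and 15.0 FPKM in FF hearts. No FF library reached the cKO range. Over the 6 libraries, groups did not overlap in 10 of the 29 genes, beside 28.0% of all genes tested. Of these 10, 6 were higher and 4 lower in cKO hearts. The log2 difference of Amotl1 was 0.65 (SE 0.15; limma adjusted p = 0.109), and 0.74 (SE 0.13; adjusted p = 0.0254) without FF replicate 3. Ajuba, a LIM protein that binds LATS kinases and inhibits them, was at 9.14, 10.2 and 11.1 FPKM in cKO hearts, against 6.76, 7.24 and 11.6 FPKM in FF hearts, and FF replicate 3 was the highest of all. Its log2 difference was 0.25 (limma adjusted p = 0.571), and 0.48 (adjusted p = 0.0409) without that library. Leaving out cKO replicate 3 in addition ended both calls (limma adjusted p = 0.0651 for Amotl1 and 0.117 for Ajuba), where 97 of all genes tested were called. Leaving out cKO replicate 2 ended that of Ajuba (adjusted p = 0.0942), where 509 genes were called. Both calls also ended with FF replicate 1 or FF replicate 2 out, as did those of all other genes, with 1 FF library left.

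The kinases at the head of the pathway did not pass in either fit. Stk3, which encodes MST2, was at 4.76, 4.15 and 4.51 FPKM in cKO hearts, against 6.79, 5.14 and 2.44 FPKM in FF hearts. Stk4, which encodes MST1, was at 5.65, 6.42 and 6.72 FPKM in cKO hearts, against 6.22, 4.77 and 9.16 FPKM in FF hearts. The log2 differences were -0.00 for Stk3 and -0.05 for Stk4 (limma adjusted p = 0.997 and 0.925), and -0.34 and 0.17 without FF replicate 3 (adjusted p = 0.129 and 0.409). The LATS partners Mob1a and Mob1b had log2 differences of 0.15 and 0.27 (limma adjusted p = 0.717 and 0.719), and -0.04 and -0.13 without FF replicate 3. Nf2, the junctional activator of the pathway also called merlin, was at 15.7, 18.4 and 18.1 FPKM in cKO hearts, against 20.4, 18.4 and 24.7 FPKM in FF hearts. The groups came close without overlapping, at 18.36 FPKM in cKO replicate 2 and 18.42 FPKM in FF replicate 2. The log2 difference of Nf2 was -0.26 (limma adjusted p = 0.408), and -0.15 (adjusted p = 0.346) without FF replicate 3. Of the other vestigial-like cofactors of TEAD, Vgll3 was at 1.09 to 1.48 FPKM in cKO and 0.706 to 1.39 FPKM in FF hearts, while Vgll1 and Vgll2 had at most 0.0751 FPKM in any library.

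Target genes of YAP and TAZ were taken as a list of their own. Of 22 listed genes, Lats2 among them, 18 were tested, 9 with a log2 difference above 0 and 9 below, and the median was 0.00 against 0.01 over all genes. The split was 11 above 0 and 7 below without FF replicate 3, with a median of 0.03 against -0.01 over all genes. None passed with 6 libraries in limma (3 had an unadjusted p under 0.05), and without FF replicate 3 Ankrd1 alone rose, 1 of 18 (5.56%) beside 12.0% of all genes tested. Ankrd1, a stretch-responsive repeat protein of the heart muscle and a widely used YAP target, was at 392, 403 and 423 FPKM in cKO hearts, against 199.6, 159.0 and 133 FPKM in FF hearts. Each cKO heart was above each FF heart, FF replicate 3 included. Groups were so placed in 3 of the 18 target genes, beside 13.5% of all genes tested, and 0 were placed the other way, beside 14.5%. Of the listed targets under the FPKM limit, which were not tested, Nuak2, Fjx1 and Dock5 were lower in every cKO heart. Nuak2 was at 0.349 to 0.670 FPKM in cKO and 0.877 to 1.17 FPKM in FF hearts. Fjx1 was at 0.372 to 0.529 and 0.635 to 1.40 FPKM, and Dock5 at 0.383 to 0.499 and 0.501 to 0.730 FPKM. These values rest on few reads, 23 to 84 per library for Fjx1. The log2 difference of Ankrd1 was 1.32 (SE 0.17; limma adjusted p = 0.0562), and 1.18 (SE 0.13; adjusted p = 0.0152) without FF replicate 3. That call was lost on leaving out cKO replicate 3 as well (limma adjusted p = 0.0525), where 97 of all genes tested were called. It was also lost with FF replicate 1 or FF replicate 2 out, as were those of all other genes, with 1 FF library left. An antisense transcript over 3639 bases of Ankrd1 (ENSMUSG00000120701) stood at 10.8 to 14.3 FPKM in cKO and 2.76 to 5.70 FPKM in FF hearts, and with no strand setting on record for the counting, reads of the pair cannot be told apart.

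The upstream 250 bases of Ankrd1 held 2 M-CAT elements, beginning 210 and 123 bases before the start. They are set beside each other as 30 bases each, 5′ to 3′ on the gene's minus strand, at chr19:36120037-36120066 and chr19:36119950-36119979 (GRCm38.p6, RefSeq).
Ankrd1 distal: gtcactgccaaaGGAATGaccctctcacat
Ankrd1 proximal: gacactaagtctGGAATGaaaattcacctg
Of the 15 target genes with a promoter entry 6 had the element, and Ccn2 was among those without an entry. For the list of upstream regulators it was 6 of 25 genes. Of all 27025 genes with an entry, 14.4% had it.

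Ccn1 and Ccn2, the matricellular genes most often read as YAP activity, varied among hearts of a group. Ccn1 was at 20.8, 41.8 and 27.7 FPKM in cKO hearts, against 25.7, 34.0 and 59.3 FPKM in FF hearts. Ccn2 was at 72.0, 121 and 83.7 FPKM in cKO hearts, against 63.7, 78.3 and 108 FPKM in FF hearts. Both were highest in cKO replicate 2 and FF replicate 3 within their groups, and the groups overlapped. The log2 differences were -0.36 (95% interval -1.22 to 0.50; limma adjusted p = 0.652) for Ccn1 and 0.14 (-0.48 to 0.77; adjusted p = 0.819) for Ccn2. They were -0.03 (adjusted p = 0.951) for Ccn1 and 0.35 (adjusted p = 0.321) for Ccn2 in limma without FF replicate 3. Intervals this wide leave room for changes in either direction.

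**Figure D5:**
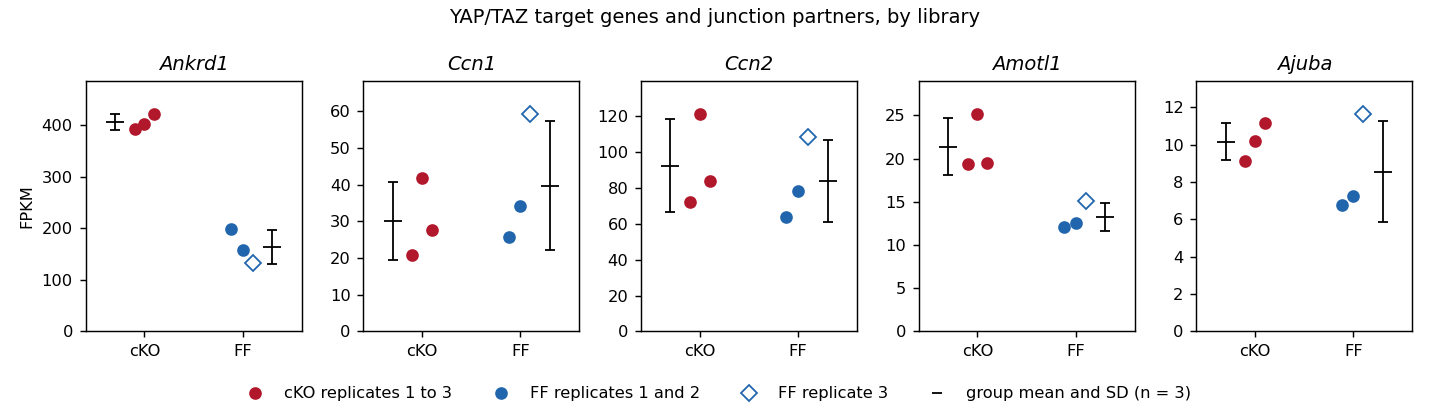
FPKM (linear axis from 0) of Ankrd1, Ccn1, Ccn2, Amotl1 and Ajuba in each library, cKO hearts left and FF hearts right, with black marks for the mean and SD of 3 libraries. Ankrd1 and Amotl1 lie apart in the groups, while Ccn1 and Ccn2 overlap and Ajuba overlaps through FF replicate 3 at 11.6 FPKM.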

How the data were processed

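The authors deposited a table of FPKM per gene with 1 column for each library, per the file headers. With no roles assigned, TopHat2 2.0.13, featureCounts, Subread, edgeR and FastQC appear in the submitters' processing notes, as do the builds GRCh38, mm10 and GRCm39. Ovation Ultralow V2 libraries were prepared from miRNeasy RNA, per the labels' protocols. The annotation release and the strand setting were not given in the sources. Of 52073 gene identifiers shared with GENCODE M21 on GRCm38, 1472 had the same start and end, and none of the members did. Gene coordinates are therefore printed as deposited, which of the mouse builds named leaves GRCm39, and promoter coordinates are on GRCm38.p6.

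Multiplying FPKM by gene length gave whole multiples of a step per library. Of values under 200 reads, 100% lay within 0.1 of a whole number, which gave the reads quoted. These reads summed to 15658893 to 20339926 per library, a depth that sets the counting error. The library size implied by the step was 0.960 times that sum in FF replicate 1 and 1.07 times in cKO replicate 3, the extremes.

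The test was limma (version 3.58.1, R 4.3.3) fitted to log2(FPKM + 1) by group alone, trend option on. P-values were adjusted by Benjamini-Hochberg over the 12678 genes averaging at least 1 FPKM over all 6 libraries, and called at 0.05. The scale understates changes of low genes. The steps were run on simulated data with known changes as a check on direction. The simulated spread was simpler than that of these libraries, so the run does not measure how reliable the calls here are. GC content is that of a gene's GENCODE M21 transcripts, found for 98.4% of genes tested.

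Genes named are the 10 members, Kdm5b, listed pathway genes past the threshold in either fit and 8 fixed pathway genes. The genes most like Yap1 and Tead1 are named too. Target genes under the FPKM limit are named where their groups did not overlap, for their values alone. Vgll3, Vgll1 and Vgll2 were the cofactors listed. Members and lists were chosen with earlier results of these data known. Alternatives were pseudocounts, filters, scalings, variance models, limma-voom on the recovered reads, the replicate number as a block, GC correction, and leaving out each library.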

Additional observations from a re-analysis of the deposited data

How the results depend on the processing

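Of the 10 genes, Vgll4 was called with library weights (log2 difference 0.58, limma adjusted p = 0.00276) and without FF replicate 3, and no member was called under any other alternative with the 6-library table. The number of members called was 1 with library weights and 0 to 1 on leaving out 1 library at a time, with or without FF replicate 3 already out. The alternatives from the 5 libraries without FF replicate 3 were chosen after seeing the data, and Vgll4 was called in 12 of 16 of those settings (log2 difference 0.48 to 0.70). Fits that leave 1 library in a group assume that it varies like the others.

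Over all genes tested, the 21 calls became 11 with pseudocount 0.1, 0 with no filter, 53 at a mean of at least 5 FPKM, 59 with quantile normalization, 58 after rescaling outside mitochondrial and haemoglobin genes, 13 with a robust variance prior, 4300 with library weights, 34 with limma-voom, and 525 with GC correction. Leaving out 1 library gave 0 to 1520. With no filter 3210 genes had an unadjusted p under 0.05. The 1520 calls without FF replicate 3 became 2321 with library weights, 2408 with limma-voom and 0 to 1705 on leaving out 1 more library. Together the upstream and target lists had 0 calls. That became 1 at a mean of at least 5 FPKM, with quantile normalization, after rescaling and with limma-voom. The 1 call was Ankrd1 (limma adjusted p = 0.0380, 0.0384, 0.0406 and 0.0495). Over the main fit and its alternatives, without FF replicate 3 among them, Ankrd1 was called in 7 of 20 settings. The lists had 2 calls with GC correction, 6 with library weights and 0 to 3 on leaving out 1 library. Their 3 calls without FF replicate 3 became 5 with limma-voom and 0 to 3 on leaving out 1 more.

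Whether replicate numbers pair the samples is not known. Deviations of same-numbered samples from their group means correlated at 0.384, -0.238 and 0.239 across genes. Those of differently numbered samples correlated at -0.424 to 0.349. Deviations from a mean of 3 libraries depend on each other, so these values cannot decide the question. With the number as a block, 2 genes were called, and 6 with GC correction and block, none of them a member.

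Some log2 differences near 0 changed sign, and the cause was not tested. Wwtr1 became 0.0048 with median-ratio scaling, 0.12 with quantile normalization, 0.087 after rescaling, 0.071 with limma-voom, and -0.16 to 0.11 on leaving out 1 library. Lats1 became -0.19 with library weights, -0.027 with GC correction, with or without the block, and -0.21 to 0.22 on leaving out 1 library, and Lats2 -0.13 with library weights and -0.16 to 0.15. In the 5 libraries without FF replicate 3, Tead2 became 0.022 after rescaling, 0.014 with limma-voom and -0.15 to 0.019 on leaving out 1 more. Stk3 became 0.019 and 0.0071 with pseudocounts 0.1 and 0.5, 0.0044 with median-ratio scaling, 0.072 after rescaling, 0.10 with limma-voom and -0.34 to 0.25 on leaving out 1 library. Stk4 became 0.031 after rescaling, 0.30 with library weights, 0.015 with limma-voom and -0.24 to 0.17 on leaving out 1 library. The same leave-outs gave -0.040 to 0.28 for Mob1a, -0.13 to 0.51 for Mob1b (-0.047 with library weights) and -0.069 to 0.35 for Ccn2. Yap1, Tead1, Tead3, Tead4, Sav1 and Vgll4 kept their sign in every setting run.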

Other observations

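The genes whose profile over the 6 libraries was most like that of Yap1, by Pearson's r of log2(FPKM + 1), were Lgalsl (0.999), Klf11 (0.998) and Vps13c (0.994). For Tead1 they were Ccdc71l (0.997), Tnks2 (0.997) and Zmynd11 (0.996). In each of the 6, FF replicate 3 was the lowest library, as it was in Yap1 and Tead1, so these values describe mainly that library. Tnks2, a tankyrase, was at 20.3, 22.2 and 22.2 FPKM in cKO hearts, against 19.3, 18.6 and 10.1 FPKM in FF hearts. Klf11 was at 16.6, 19.6 and 19.2 FPKM in cKO hearts, against 18.0, 17.1 and 12.7 FPKM in FF hearts.

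Lats1 was at 0.867, 0.945 and 0.850 times Lats2 in cKO hearts and at 0.916, 0.929 and 0.744 times in FF hearts. The TEAD sum was 0.866, 0.761 and 0.865 times the sum of Yap1 and Wwtr1 in cKO hearts, against 0.669, 0.771 and 1.17 times in FF hearts. These ratios are values with no test.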
